A study of Mus musculus with 12 samples.

Results

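In mouse quadriceps, 6 of 12771 genes differed between muscles with and without AICAR at an adjusted p under 0.05 (limma). The difference was averaged over both GW1516 backgrounds. Pfkfb3, whose enzyme makes the sugar phosphate that switches on glycolysis, fell with the smallest adjusted p, and the clock repressor gene Nr1d1 fell too. Foxo1, a transcription factor of fasting and muscle wasting, the sulfotransferase gene Sult1a1, and the extracellular matrix genes Spock3 and Adamtsl4 rose.

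The comparison used all 12 arrays of the series, placed by their titles: 6 with AICAR (the groups AICAR and GW1516 + AICAR) against 6 without it (vehicle and GW1516), with GW1516 as a second factor in the model. The muscles came from C57Bl/6J mice dosed over 6 days. AICAR mice received 250 mg/kg/day of AICAR, GW1516 + AICAR mice received the same dose together with 5 mg/kg/day of GW1516, GW1516 mice received 5 mg/kg/day of that drug alone, and vehicle mice received neither drug. Each group had 3 arrays, and each array carried the pooled RNA of 3 mice of its group. Whether any mouse entered more than 1 pool is not in the labels, so the tests rest on the spread from pool to pool. The labels name no genetic change, and the age of the mice is not given in the sources used here.

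AICAR is taken up by cells and phosphorylated to ZMP, which mimics AMP and activates the AMP-activated protein kinase (AMPK), a sensor of low cellular energy. In skeletal muscle AMPK is known to promote glucose uptake and fatty acid oxidation and to act on transcription through PGC-1α, histone deacetylases and FOXO factors. GW1516 is an agonist of the nuclear receptor PPARδ. An average over both backgrounds describes a gene well only where AICAR acts alike with and without GW1516. Each background is given for the called genes and some others, in the text or a figure. For the rest only the average is given, and their backgrounds may differ.

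Every array had a trimmed mean signal of 200. The median signal was 50.6 to 54.2 on arrays with AICAR and 45.4 to 49.8 on arrays without it, and these ranges did not overlap. RNA integrity, read as the 3' to 5' signal ratio of Gapdh, lay at 0.831 to 0.880 on arrays with AICAR and 0.802 to 0.863 on arrays without it. GW1516 replicate 2 stood apart, with a score of 0.812 on the first principal component, where arrays with AICAR lay between -0.331 and -0.120 and the other arrays without AICAR between 0.0620 and 0.120. All 15 skeletal muscle markers on the list, among them Ckm and Acta1, were bright enough to be tested, and their summed signal was 337084 to 367664 with AICAR and 320281 to 405632 without. In bulk muscle, fewer cells of a type and less RNA per cell cannot be told apart.

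With limma, 6 genes (0.047% of those tested) had an adjusted p under 0.05, of which 4 were higher (0.0313%) and 2 lower (0.0157%) with AICAR. At an unadjusted p under 0.05 there were 1289 genes (10.1%), 714 higher (5.59%) and 575 lower (4.5%). The median difference over all genes was 0.01 on the log2 scale and the median standard error was 0.14. In 97 genes (0.76%) the 6 arrays with AICAR did not overlap the 6 without it, and in 216 genes (1.69%) the arrays did not overlap within either background, in the same direction. Among the 6 called genes these counts were 3 and 6, which calling genes on the same arrays favours. Leaving out 1 array gave 1 to 20 called genes, and centring each array on its median signal gave 4, with 2 in each direction.

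**Figure D1:**
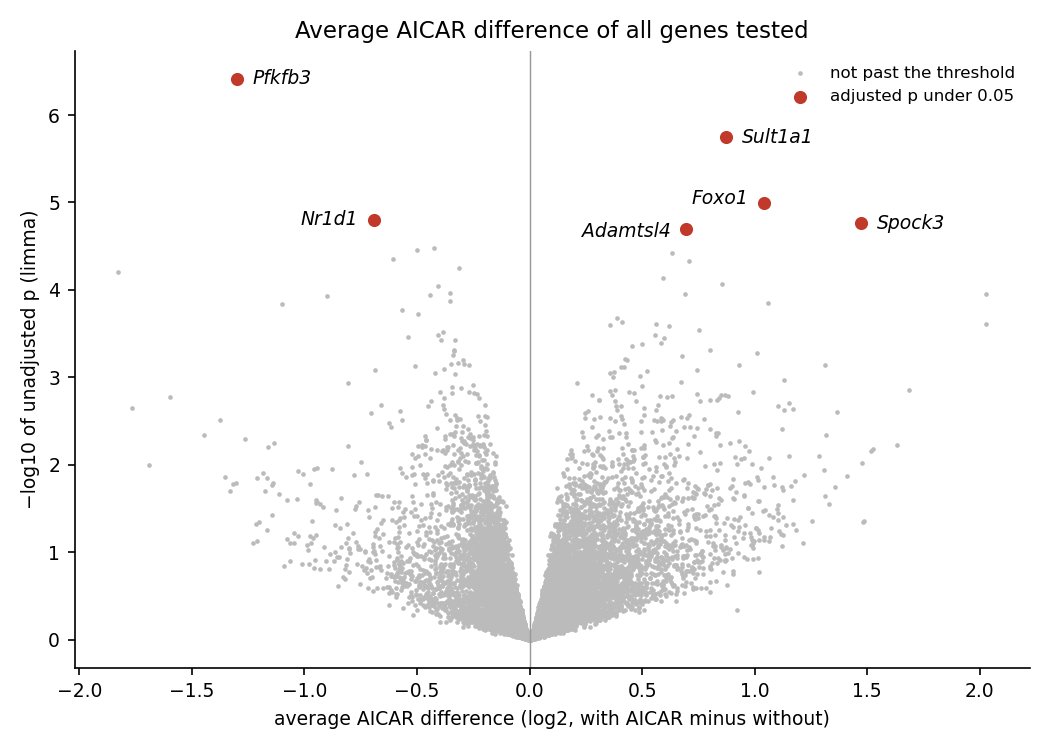
Average AICAR difference (log2, with AICAR minus without, x axis) against −log10 of the unadjusted limma p (y axis) for 12771 genes. Red points are the 6 genes with an adjusted p under 0.05. Pfkfb3 stands highest at a difference of -1.30, and Spock3 lies farthest to the right of the red points at 1.47.

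Among the 28 tested genes of glucose uptake, glycolysis and glycogen, Pfkfb3 was the 1 called. Its product, 6-phosphofructo-2-kinase/fructose-2,6-bisphosphatase 3, makes fructose 2,6-bisphosphate, an activator of phosphofructokinase in glycolysis. The Pfkfb3 signal was 1668, 1551 and 1092 in the AICAR arrays, against 3954, 3226 and 3151 in the vehicle arrays. It was 907, 492 and 779 in the GW1516 + AICAR arrays, against 2122, 1907 and 1342 in the GW1516 arrays. Within each background every array with AICAR lay below every array without it, and across backgrounds the highest AICAR arrays overlapped the lowest GW1516 array. Pfkfb3 fell by 1.30 ± 0.15 (SE, 6 against 6 arrays) on the log2 scale, 2.46-fold lower (limma, adjusted p = 0.00492). The difference was -1.28 ± 0.22 for AICAR minus vehicle and -1.32 ± 0.22 for GW1516 + AICAR minus GW1516. A second, dimmer Pfkfb3 probe set differed by -0.83. The gene was also lower with GW1516 averaged over both AICAR backgrounds, by -0.99 ± 0.16 (limma, adjusted p = 0.0174), and its lowest signals were in the combination.

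The nuclear receptor gene Nr1d1 encodes REV-ERBα, which represses the clock gene Arntl and binds haem. Its signal was 702, 599 and 505 in the AICAR arrays, against 1016, 985 and 928 in the vehicle arrays. In the GW1516 + AICAR arrays it was 524, 493 and 511, against 1105, 668 and 727 in the GW1516 arrays. The groups did not overlap within either background, while GW1516 replicate 2, at 668, lay below AICAR replicate 1. Nr1d1 fell by 0.69 ± 0.11 on the log2 scale (limma, adjusted p = 0.0433), with -0.71 ± 0.16 for AICAR minus vehicle and -0.67 ± 0.16 for GW1516 + AICAR minus GW1516.

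Foxo1 codes for a forkhead transcription factor that insulin signalling keeps out of the nucleus. Its signal was 645, 709 and 667 in the AICAR arrays, against 262, 254 and 276 in the vehicle arrays. It was 763, 909.8 and 717 in the GW1516 + AICAR arrays, against 307, 660.2 and 532 in the GW1516 arrays. Each background was free of overlap, but GW1516 replicate 2 reached the level of AICAR replicate 1. Foxo1 rose by 1.04 ± 0.16 on the log2 scale, 2.06-fold (limma, adjusted p = 0.0433). The difference was 1.35 ± 0.20 for AICAR minus vehicle and 0.74 ± 0.20 for GW1516 + AICAR minus GW1516, and the interaction did not pass (limma, adjusted p = 0.746). Its other 2 probe sets past the brightness filter differed by 0.75 and 0.80.

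Sult1a1 encodes a cytosolic sulfotransferase of phenolic compounds. Its signal was 749, 1049 and 988 in the AICAR arrays, against 454, 544 and 381 in the vehicle arrays. It was 1065, 902 and 1045 in the GW1516 + AICAR arrays, against 504, 628 and 699 in the GW1516 arrays. All 6 arrays with AICAR were above all 6 without it. Sult1a1 rose by 0.87 ± 0.12 on the log2 scale, 1.83-fold (limma, adjusted p = 0.0114), with 1.01 ± 0.16 and 0.73 ± 0.16 in the vehicle and GW1516 backgrounds.

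Both matrix genes also separated all 6 arrays from all 6. Spock3, which codes for a secreted testican proteoglycan, had signals of 801, 586 and 327 in the AICAR arrays, against 204, 171 and 315 in the vehicle arrays. Its signals were 467, 633 and 893 in the GW1516 + AICAR arrays, against 204, 141 and 285 in the GW1516 arrays. AICAR replicate 3, at 327, was close to vehicle replicate 3, at 315, while the other arrays with AICAR stood clear. Spock3 rose by 1.47 ± 0.24 on the log2 scale, 2.77-fold (limma, adjusted p = 0.0433), with 1.27 ± 0.34 and 1.67 ± 0.34 in the vehicle and GW1516 backgrounds. Spock3 was read from 1 probe set, since the other averaged a signal of 2.07, reached at most 10.9 on any array and was too dim to test. Whether the probe set used reads Spock3 alone was not tested. Adamtsl4 encodes an ADAMTS-like glycoprotein that binds fibrillin. It had signals of 331, 409 and 431 in the AICAR arrays, against 206, 285 and 243 in the vehicle arrays. Its signals were 377, 413 and 506 in the GW1516 + AICAR arrays, against 301, 273 and 218 in the GW1516 arrays. Adamtsl4 rose by 0.70 ± 0.11 on the log2 scale (limma, adjusted p = 0.0433), with 0.68 ± 0.17 and 0.71 ± 0.17 in the vehicle and GW1516 backgrounds. The list of fibroblast and matrix markers, which holds neither gene, had no called member.

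**Figure D2:**
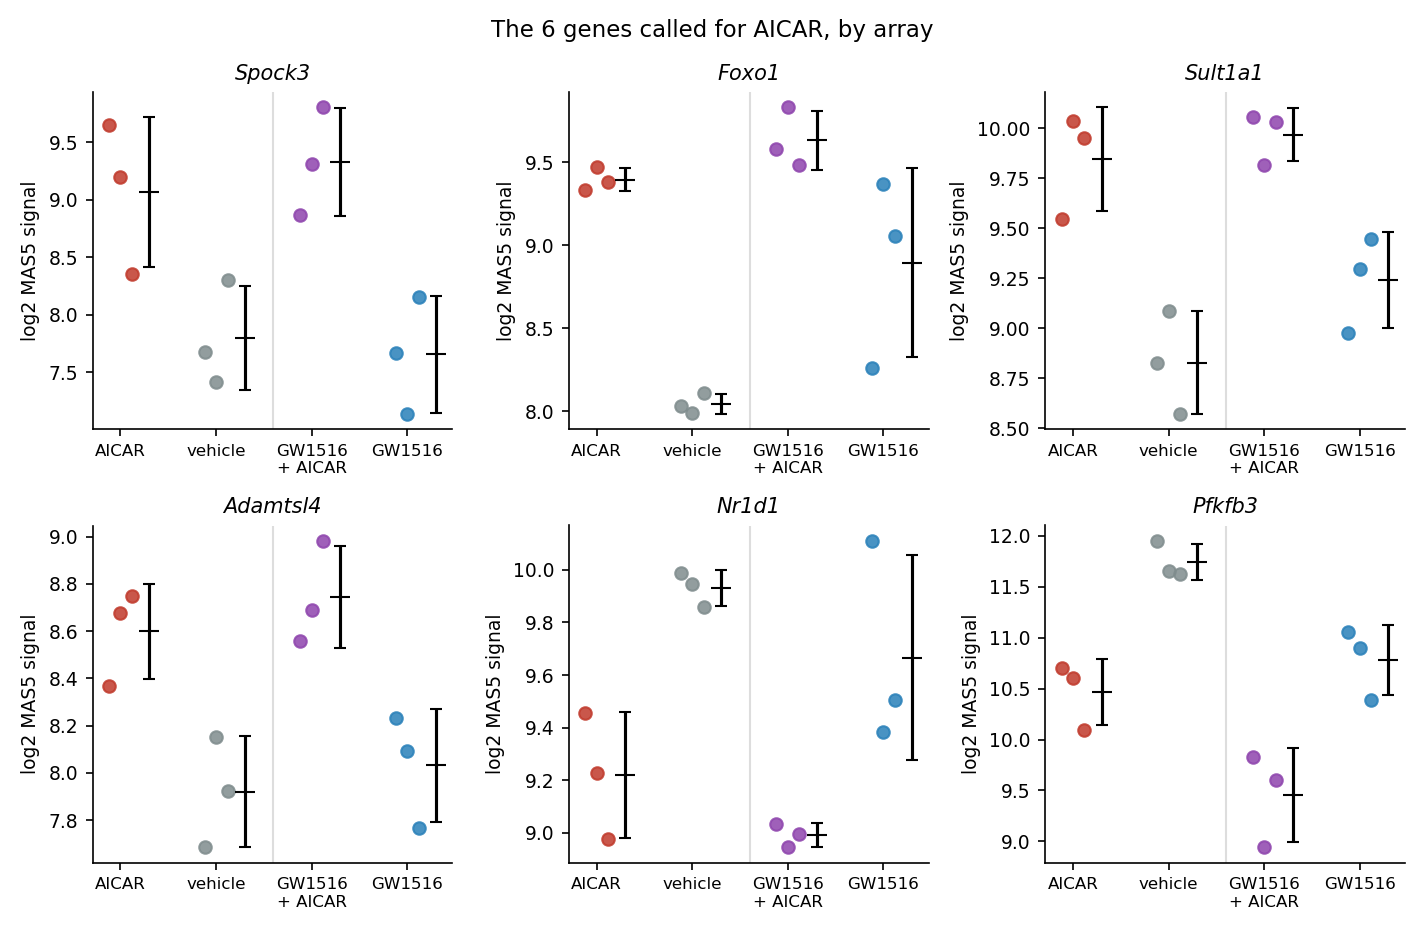
log2 MAS5 signal (y axis) of the 6 called genes in each array (points, 3 per group) with the group mean and SD beside them (bar), for AICAR, vehicle, GW1516 + AICAR and GW1516 from left to right. In no panel do the AICAR and vehicle arrays overlap, or the GW1516 + AICAR and GW1516 arrays, though for Spock3 AICAR replicate 3 (327) lies close to vehicle replicate 3 (315).

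How firmly each gene held its call depended on single arrays. Over the 12 fits that each left out 1 array, Pfkfb3 passed 12 times, with differences of -1.38 to -1.18. Sult1a1 passed 10 times, with 0.80 to 0.93, and missed at an adjusted p of 0.0531 without GW1516 + AICAR replicate 1 and 0.0558 without vehicle replicate 1 (limma). Nr1d1, at -0.76 to -0.60, passed only without AICAR replicate 1 or without any 1 GW1516 array. Spock3, at 1.33 to 1.65, passed only without AICAR replicate 3, GW1516 replicate 2, GW1516 replicate 3 or vehicle replicate 3. Foxo1, at 0.94 to 1.18, passed only without GW1516 replicate 2, GW1516 replicate 3 or GW1516 + AICAR replicate 3, and Adamtsl4, at 0.64 to 0.75, only without AICAR replicate 1, GW1516 replicate 2 or vehicle replicate 2. The highest adjusted p over these fits was 0.129 for Nr1d1, Foxo1, Spock3 and Adamtsl4, without AICAR replicate 2. Without GW1516 replicate 2, the array that stood apart, all 6 genes passed, with Foxo1 at 1.18, Nr1d1 at -0.76, Pfkfb3 at -1.27, Sult1a1 at 0.90, Spock3 at 1.33 and Adamtsl4 at 0.71, and 20 genes in all were called. With each array centred on its median signal, Spock3 at 1.45 and Adamtsl4 at 0.67 stood just outside the threshold (limma, both adjusted p = 0.0513), and with a gene's probe sets averaged Foxo1 stood at 0.86 (limma, adjusted p = 0.072). Without the trend in limma's variances none of the 6 passed, at adjusted p-values of 0.174 to 0.193.

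The promoters of Pfkfb3, Sult1a1 and Nr1d1 are shown because these genes moved with AICAR and the first 2 carry a searched motif. Sequences are from RefSeq (GRCm38.p6), 250 bases before to 50 after an annotated start, all on the minus strand and written 5′ to 3′. Capitals mark CACGTG, the E-box of clock and carbohydrate response factors, in Pfkfb3, and AGAACA, the core of a glucocorticoid receptor element, on either strand in Sult1a1. Nr1d1 has no capitals, as no searched motif was found in its window.
Pfkfb3, chr2:11502041-11502340: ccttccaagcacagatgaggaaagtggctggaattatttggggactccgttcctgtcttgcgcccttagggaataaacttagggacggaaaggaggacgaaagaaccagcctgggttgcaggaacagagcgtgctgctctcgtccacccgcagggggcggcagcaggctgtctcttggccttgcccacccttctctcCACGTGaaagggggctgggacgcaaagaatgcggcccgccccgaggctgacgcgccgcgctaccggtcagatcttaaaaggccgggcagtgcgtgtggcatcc
Sult1a1, chr7:126676369-126676668: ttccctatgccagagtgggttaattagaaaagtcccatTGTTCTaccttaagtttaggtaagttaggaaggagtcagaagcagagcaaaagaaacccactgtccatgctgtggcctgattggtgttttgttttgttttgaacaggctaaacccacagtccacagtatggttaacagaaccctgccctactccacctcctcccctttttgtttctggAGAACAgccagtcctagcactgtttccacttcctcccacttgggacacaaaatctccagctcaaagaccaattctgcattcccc
Nr1d1, chr11:98775328-98775627: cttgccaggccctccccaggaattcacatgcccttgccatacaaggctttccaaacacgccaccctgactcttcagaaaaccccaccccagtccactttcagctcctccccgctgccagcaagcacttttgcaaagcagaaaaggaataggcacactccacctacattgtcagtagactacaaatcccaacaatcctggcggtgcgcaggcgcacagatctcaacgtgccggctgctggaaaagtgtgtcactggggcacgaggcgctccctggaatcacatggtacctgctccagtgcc
Pfkfb3 has another window in the table, without a match. On both strands, CACGTG was found for 1 of the 6 called genes and in 7.15% of all 32851 windows, and AGAACA for 1 of 6 and in 19% of windows. The FOXO motif GTAAACA (3.65% of windows), the cyclic AMP element TGACGTCA (1.79%), the PPAR element, a direct repeat of AGGTCA with 1 base between (0.0396%), and AGGTCA itself, the core of REV-ERB and ROR elements (16.3%), were found in none of the 6.

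All 24 leading genes, the 12 called or of smallest p in each direction, differed the same way in both backgrounds, which ranking on the average favours. In 16 of them the 6 arrays with AICAR did not overlap the 6 without it, against 0.76% of all genes. In 22 there was no overlap within either background, against 1.69% of all genes. Choosing genes by small p on these same arrays favours both. The 18 genes beyond the 6 called did not pass. Noct, whose product nocturnin is a rhythmically expressed phosphatase of NADP(H), had signals of 939, 982 and 1005 in the AICAR arrays, against 451, 592 and 773 in the vehicle arrays. Its signals were 1088, 1201 and 979.6 in the GW1516 + AICAR arrays, against 825, 653 and 764 in the GW1516 arrays. All arrays with AICAR were higher, and the difference of 0.63 ± 0.11 stood just outside the threshold (limma, adjusted p = 0.0541). Other genes on the higher side were Adh1, a class I alcohol dehydrogenase, at 0.71 ± 0.13 (limma, adjusted p = 0.0542), the interferon-γ receptor gene Ifngr2 at 0.59 ± 0.11 (0.0663), the actin-oxidising enzyme gene Mical2 at 0.85 ± 0.16 (0.0708) and the neuropeptide gene Nmb at 0.69 ± 0.13 (0.0708). A second Ifngr2 probe set differed by only 0.01. Ptpn14, a tyrosine phosphatase gene, closed the higher side at 0.39 ± 0.080 (limma, adjusted p = 0.0999). Its other testable probe sets stood at -0.30 and 0.26, and their average with the brightest at 0.11. Dimmer probe sets of Mical2 and 2810410L24Rik stood at 0.27 and 0.13. The keratin gene Krt88 at 2.03 ± 0.39 and 2810410L24Rik at 1.06 ± 0.21 completed it, and Krt88 was dim, with signals of 55.7 to 96.6 with AICAR and 8.88 to 50.6 without.

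Rpl22l1, a paralogue of the ribosomal protein gene Rpl22, led the lower genes that did not pass. Its signal was 2662, 2719.5 and 2759 in the AICAR arrays, against 3999, 4181 and 4433 in the vehicle arrays. It was 2931, 2960.2 and 2939 in the GW1516 + AICAR arrays, against 3665, 3493 and 3164 in the GW1516 arrays. The 6 arrays with AICAR lay within a narrow band below all 6 without it, and the gap was wider in the vehicle background, -0.63 ± 0.072, than in the GW1516 background, -0.22 ± 0.072. The average was -0.43 ± 0.073 (limma, adjusted p = 0.0541), and the difference between backgrounds did not pass (limma, interaction adjusted p = 0.703). Rpl22 itself stood at -0.12 ± 0.058. Dnajc3, a co-chaperone gene of the endoplasmic reticulum, stood at -0.50 ± 0.086 (limma, adjusted p = 0.0541), though its 3 other testable probe sets lay between -0.17 and -0.03. Sh3bp5, whose product binds the kinase JNK, stood at -0.61 ± 0.11 (0.0542) and its second testable probe set at -0.10. The tubulin gene Tubb4b stood at -0.32 ± 0.057 (0.0597), the splicing genes Srrm2 and Luc7l3 at -0.41 ± 0.077 and -0.44 ± 0.085 (both 0.0708), 1110008P14Rik at -0.35 ± 0.068 (0.0708) and the kinase gene Dyrk2 at -0.35 ± 0.069 (0.0775). For Dyrk2 the 3 testable probe sets had close values, -0.35, -0.43 and -0.46. Other testable probe sets stood at -0.0026 and -0.29 for Srrm2, -0.14 and 0.27 for Luc7l3, and -0.08 and -0.03 for 1110008P14Rik, and with probe sets averaged these genes stood at -0.23, -0.11 and -0.15. The adrenaline synthesis gene Pnmt stood at -0.90 ± 0.17. The antiplasmin gene Serpinf2, the dimmest of the lower genes, stood at -1.83 ± 0.33, with signals of 18.4 to 84.0 with AICAR and 77.9 to 115 without.

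**Figure D3:**
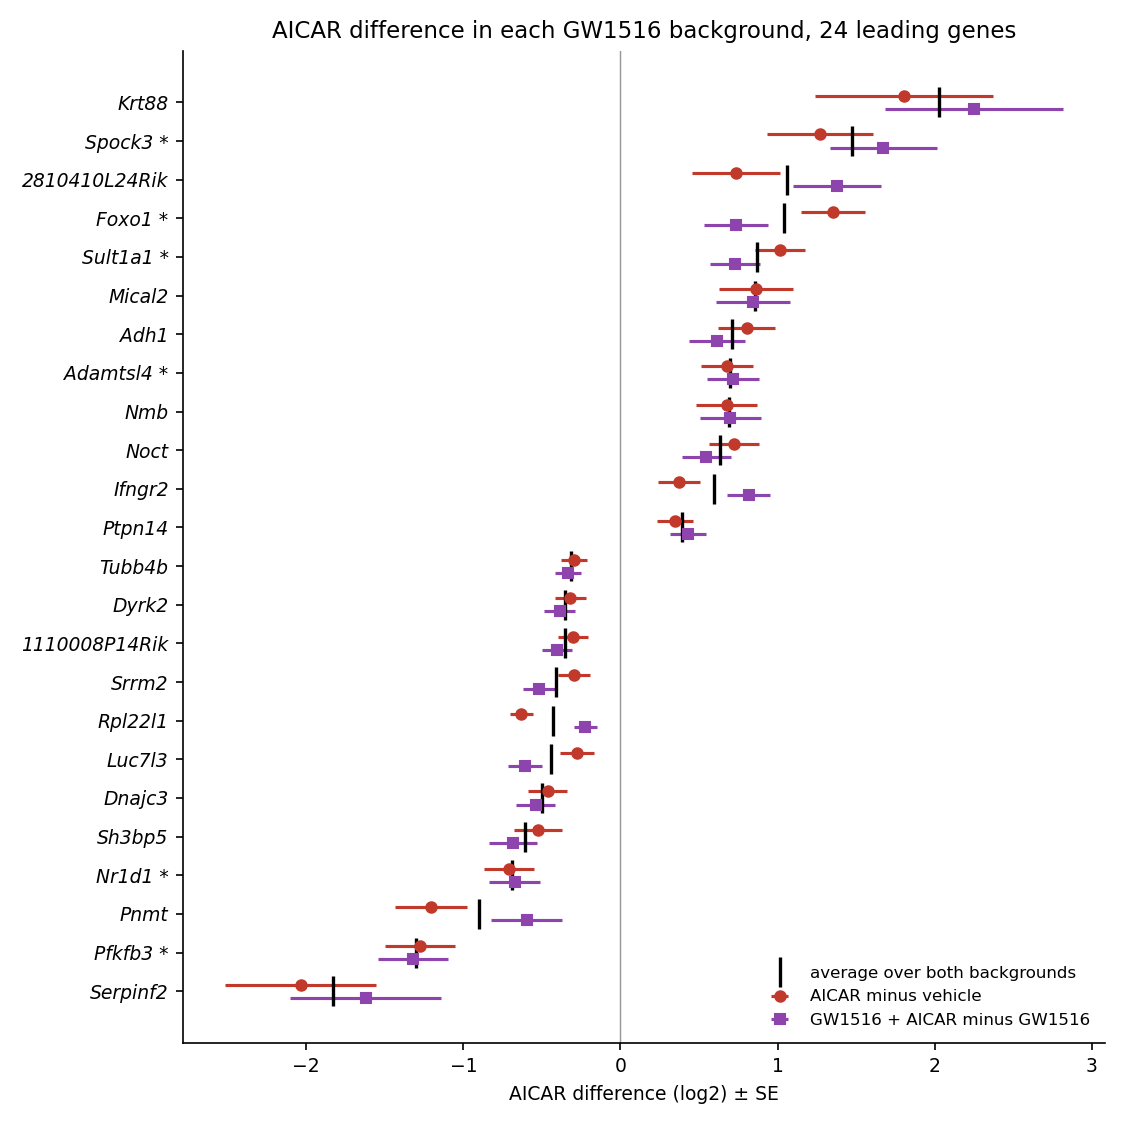
AICAR difference (log2, x axis) with its SE in 24 leading genes (rows, called genes starred), as AICAR minus vehicle (red circles), GW1516 + AICAR minus GW1516 (purple squares) and their average (black bars). Pfkfb3, Nr1d1 and Adamtsl4 have nearly the same difference in both backgrounds, while the markers of Rpl22l1 (-0.63 and -0.22) and Foxo1 (1.35 and 0.74) stand apart.

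Whether AICAR acted alike in both backgrounds was tested as an interaction across all genes. limma called 0 genes, at a smallest adjusted p of 0.703, and 848 genes (6.64%) had an unadjusted p under 0.05. Taken alone, AICAR minus vehicle called 1 gene (0.00783%), Rpl22l1, and GW1516 + AICAR minus GW1516 called 0 (0%). These contrasts share no array. That no interaction was called does not show that the backgrounds were alike.

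The kinase complex that AICAR activates showed no called member. Of 11 genes for AMPK subunits and their upstream kinases, 5 were above 0 and 6 below, with a median of -0.02, and 0 had an unadjusted p under 0.05. Prkaa2, the catalytic subunit gene of muscle, had signals of 3905 to 5152 with AICAR and 4038 to 6205 without. Its difference was -0.05, with a 95% confidence interval of -0.21 to 0.11, and that of the upstream kinase gene Stk11 was -0.12 (-0.26 to 0.02). Stk11 differed by 0.02 in the vehicle background and by -0.26 in the GW1516 background. Among 17 genes of purine and AICAR handling 0 had an unadjusted p under 0.05, and the median was -0.04. The coactivator gene Ppargc1a stood at 0.05 (-0.12 to 0.23), with 0.21 in the vehicle background and -0.10 in the GW1516 background. In its list of 18 PGC-1, ERR and PPAR regulators 0 were called. At an unadjusted p under 0.05 there were 2 higher and 1 lower (16.7%, against 10.1% of all genes). All gene lists were chosen with earlier results of these data known, which can favour such shares here and in the lists below. Nrip1, a corepressor gene, stood at 0.30 ± 0.095 and Esrra, an orphan receptor gene of mitochondrial programmes, at 0.25 ± 0.11.

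Of 28 genes of glucose uptake, glycolysis and glycogen, 20 were above 0 and the median was 0.04. Pfkfb3 was the 1 called member, and 6 of 28 had an unadjusted p under 0.05 (21.4%, against 10.1% of all genes), 3 in each direction. Hk2, which phosphorylates glucose on entry, had signals of 5143 to 5931 with AICAR and 4755 to 5157 without, and a difference of 0.12 ± 0.046 (limma, adjusted p = 0.389). Slc2a4, the insulin-responsive glucose transporter gene GLUT4, stood at 0.09 ± 0.052, and the muscle fructose bisphosphatase gene Fbp2 at 0.23 ± 0.092. Txnip, an inhibitor of glucose uptake, stood at -0.37 ± 0.11, and Gyg, the primer of glycogen, at -0.20 ± 0.078. Gyg differed by -0.03 in the vehicle background and by -0.38 in the GW1516 background. None of these 5 passed.

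Of 23 PPAR target genes, 15 were above 0, the median was 0.06 and 0 were called. Plin4, which coats lipid droplets, had signals of 3828, 4447 and 4503 in the AICAR arrays, against 2761, 2726 and 2731 in the vehicle arrays. In the GW1516 + AICAR arrays it had 4789, 5318 and 5018, against 4310.3, 5488 and 4357 in the GW1516 arrays, where groups overlapped. The difference was 0.63 in the vehicle background, 0.10 in the GW1516 background and 0.37 ± 0.096 on average (limma, adjusted p = 0.212). Ucp3, a mitochondrial carrier, stood at 0.26 ± 0.12, and Pdk4, which brakes pyruvate oxidation, at 0.19 ± 0.18. In the vehicle and GW1516 backgrounds Ucp3 differed by 0.42 and 0.11, and Pdk4 by 0.41 and -0.03. The 48 respiratory chain genes and 16 genes of the TCA cycle had 0 members with an unadjusted p under 0.05, with medians of 0.03 and 0.03. In both lists the medians differed between backgrounds, -0.05 and -0.04 for AICAR minus vehicle and 0.13 and 0.12 for GW1516 + AICAR minus GW1516, and without GW1516 replicate 2 the average medians were -0.02 and -0.0037.

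Clock genes were split, and the hour of collection is not given in the sources used here. Of 18 tested, Nr1d1 was called and 6 had an unadjusted p under 0.05 (33.3%, against 10.1% of all genes), 2 higher and 4 lower, with a median of -0.02. The list was chosen with earlier results of these data known and holds Nr1d1, which can favour that share. Bhlhe40, whose product DEC1 represses clock transcription, had signals of 1477, 1468 and 1322 in the AICAR arrays, against 2359.9, 1921 and 1885 in the vehicle arrays. It had 1219, 1047 and 1236 in the GW1516 + AICAR arrays, against 2091, 1304 and 1514 in the GW1516 arrays. Each background was free of overlap, and the difference of -0.49 ± 0.10 did not pass (limma, adjusted p = 0.0921). Without GW1516 replicate 2 it did, at -0.56 (limma, adjusted p = 0.0236). Per2, a period gene, stood at 0.32 ± 0.11 and Clock, a core activator, at -0.35 ± 0.12. Arntl was listed as Bmal1 and was not read under that name, so it is not among the genes tested in this list.

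Foxo1 was the 1 called member of the list of FOXO targets and atrophy genes. Of 26 members, 8 were above 0 and 18 below, the median was -0.07, and 5 had an unadjusted p under 0.05 (19.2%, against 10.1% of all genes), 4 higher and 1 lower. The median was 0.13 for AICAR minus vehicle and -0.30 for GW1516 + AICAR minus GW1516, and the average without GW1516 replicate 2 was 0.10. The ubiquitin ligase gene Fbxo32 had signals of 2123, 2541 and 2293 in the AICAR arrays, against 1995, 1839 and 1574 in the vehicle arrays. It had 2139.6, 1953 and 1749 in the GW1516 + AICAR arrays, against 1507, 11253 and 2607 in the GW1516 arrays. GW1516 replicate 2 alone stood at 11253, and Trim63, the other muscle ubiquitin ligase gene, had 10734 on the same array. Fbxo32 differed by -0.25 ± 0.36 with that array and by 0.19 without it. Fkbp5, an immunophilin gene that glucocorticoids induce, differed by 0.83 ± 0.25 (limma, adjusted p = 0.285) and, without that array, by 1.11 (limma, adjusted p = 0.00512). Irs2, an adaptor of the insulin receptor, stood at -0.66 ± 0.18, Glul at 0.30 ± 0.14 and neither passed.

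Immediate early and heat shock genes had the lowest median of the 24 lists, -0.18, with 21 of 24 members below 0, 0 called and 5 with an unadjusted p under 0.05 (20.8%, against 10.1% of all genes), 1 higher and 4 lower. Junb stood at -1.26 ± 0.38 and Nr4a2 at -1.16 ± 0.37, both overlapping between arrays with and without AICAR. Both were dim, with signals of 12.7 to 119 for Junb and 35.7 to 229 for Nr4a2 across all arrays. Dusp1, a phosphatase of MAP kinases, stood at 0.43 ± 0.13 in the other direction. Of 32 cytosolic ribosomal protein genes and paralogues, 28 were below 0, with a median of -0.06. An unadjusted p under 0.05 was found for 7 (21.9%, against 10.1% of all genes), 1 higher and 6 lower. Rpl8 stood at -0.20 ± 0.060, and Rpl39, 1 of 4 members above 0, at 0.68 ± 0.16 (limma, adjusted p = 0.149).

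**Figure D4:**
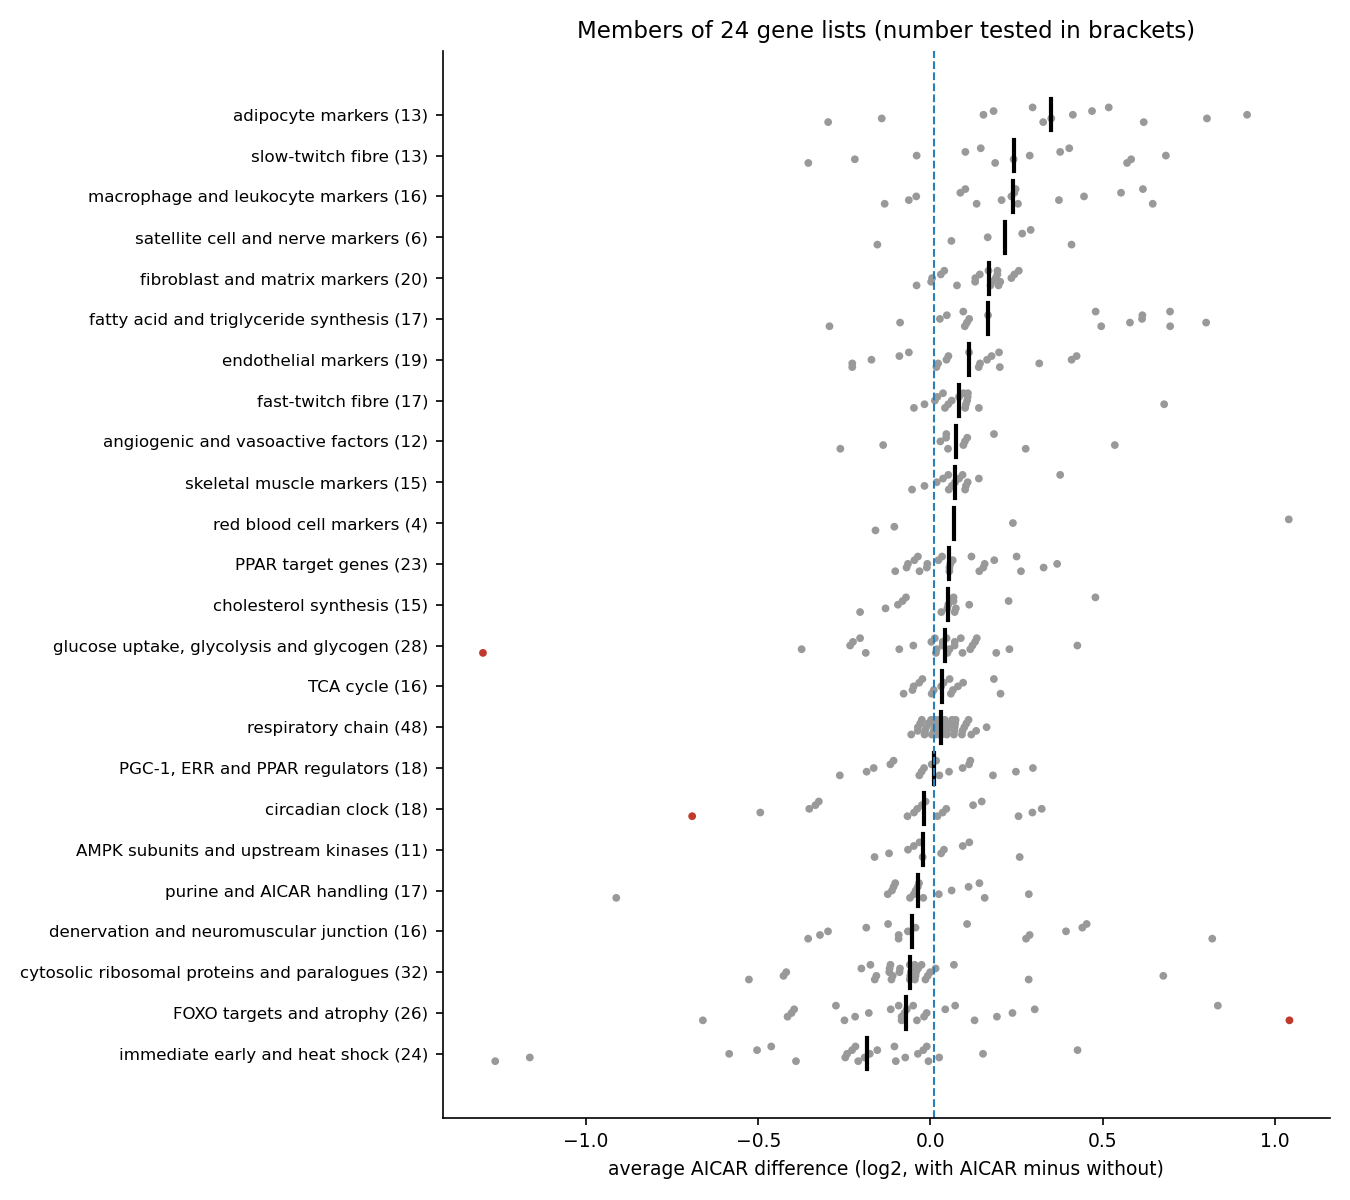
Average AICAR difference (log2, with AICAR minus without, x axis) of every tested member (points) of 24 gene lists (rows), with the list median (black bar) and the median of all 12771 genes (dashed line, 0.01). Red points are called genes. List medians run from -0.18 for immediate early and heat shock genes to 0.35 for adipocyte markers.

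Fibre type markers held no called gene. Of 17 fast-twitch genes 15 were above 0, with a median of 0.08, and of 13 slow-twitch genes 10 were above 0, with a median of 0.24. The slow myosin light chain gene Myl2 stood at 0.68 ± 0.37. Per array, the slow-twitch median relative to the mean of the 12 arrays ran from -0.53 to 0.55 within the GW1516 + AICAR group alone. Of 16 denervation and junction genes, 7 were above 0 and 9 below, with a median of -0.05. An unadjusted p under 0.05 was found for 4 (25%, against 10.1% of all genes), 3 higher and 1 lower. Runx1 stood at 0.82 ± 0.28, Dok7, an activator of the junction kinase MuSK, at 0.45 ± 0.14 and Myod1 at -0.36 ± 0.17. In the vehicle and GW1516 backgrounds Runx1 differed by 0.39 and 1.25, and Dok7 by 0.19 and 0.72.

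Markers of other cell types differed between the arrays as follows, and their part in the 6 calls was not tested. Adipocyte markers had 11 of 13 members above 0 and a median of 0.35, but 0 with an unadjusted p under 0.05. Their summed signal was 18681 to 39199 with AICAR and 16818 to 31874 without. The list median per array was -0.68, 0.50 and 1.29 in the AICAR arrays, against 0.06, -0.90 and -0.53 in the vehicle arrays, and 0.84, 0.08 and -0.76 in the GW1516 + AICAR arrays, against 0.07, -0.32 and 0.71 in the GW1516 arrays. Groups overlapped in both backgrounds, and the fatty acid and triglyceride synthesis list, with 15 of 17 above 0 and a median of 0.17, varied in the same arrays. Elovl6 in that list stood at 0.80 ± 0.39 and Thrsp at 0.62 ± 0.27.

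Endothelial markers had 14 of 19 members above 0, a median of 0.11 and 3 members higher at an unadjusted p under 0.05 (15.8%, against 5.59% of all genes in that direction). The endothelial receptor genes Adgrf5 and Ramp2 stood at 0.41 ± 0.085 (limma, adjusted p = 0.103) and 0.42 ± 0.098 (limma, adjusted p = 0.156). Their list's summed signal was 6371 to 7096 with AICAR and 5457 to 6729 without, overlapping. Macrophage and leukocyte markers had 13 of 16 above 0, a median of 0.24 and 4 higher at an unadjusted p under 0.05 (25%, against the same 5.59%). Cd163, a scavenger receptor of resident macrophages, stood at 0.62 ± 0.19 and Itgam at 0.65 ± 0.26, and the median of the list without GW1516 replicate 2 was 0.11. The further markers S100a8, S100a9 and Cd3e were too dim to test. Fibroblast and matrix markers had 19 of 20 above 0 and a median of 0.17, which was -0.02 without GW1516 replicate 2. On that array the list median was -1.004, where no other array was below -0.09. Red blood cell markers summed to 269 to 304 with AICAR and 158 to 252 without, from 5 genes on the array. These ranges did not overlap, but the signals were dim. Across all arrays Alas2 ran from 11.4 to 126, Hbb-b2 from 27.4 to 93.2, Hba-a2 from 22.7 to 72.4 and Slc4a1 from 8.18 to 66.4. The fifth gene, Hba-a1, was too dim to test. Only 4 could be tested, 2 above 0 and 2 below, with a median of 0.07. Alas2 stood at 1.04 ± 0.39, Hbb-b2 at 0.24 ± 0.33, Hba-a2 at -0.10 ± 0.29 and Slc4a1 at -0.16 ± 0.43. Satellite cell and nerve markers had 5 of 6 above 0 and a median of 0.22.

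**Figure D5:**
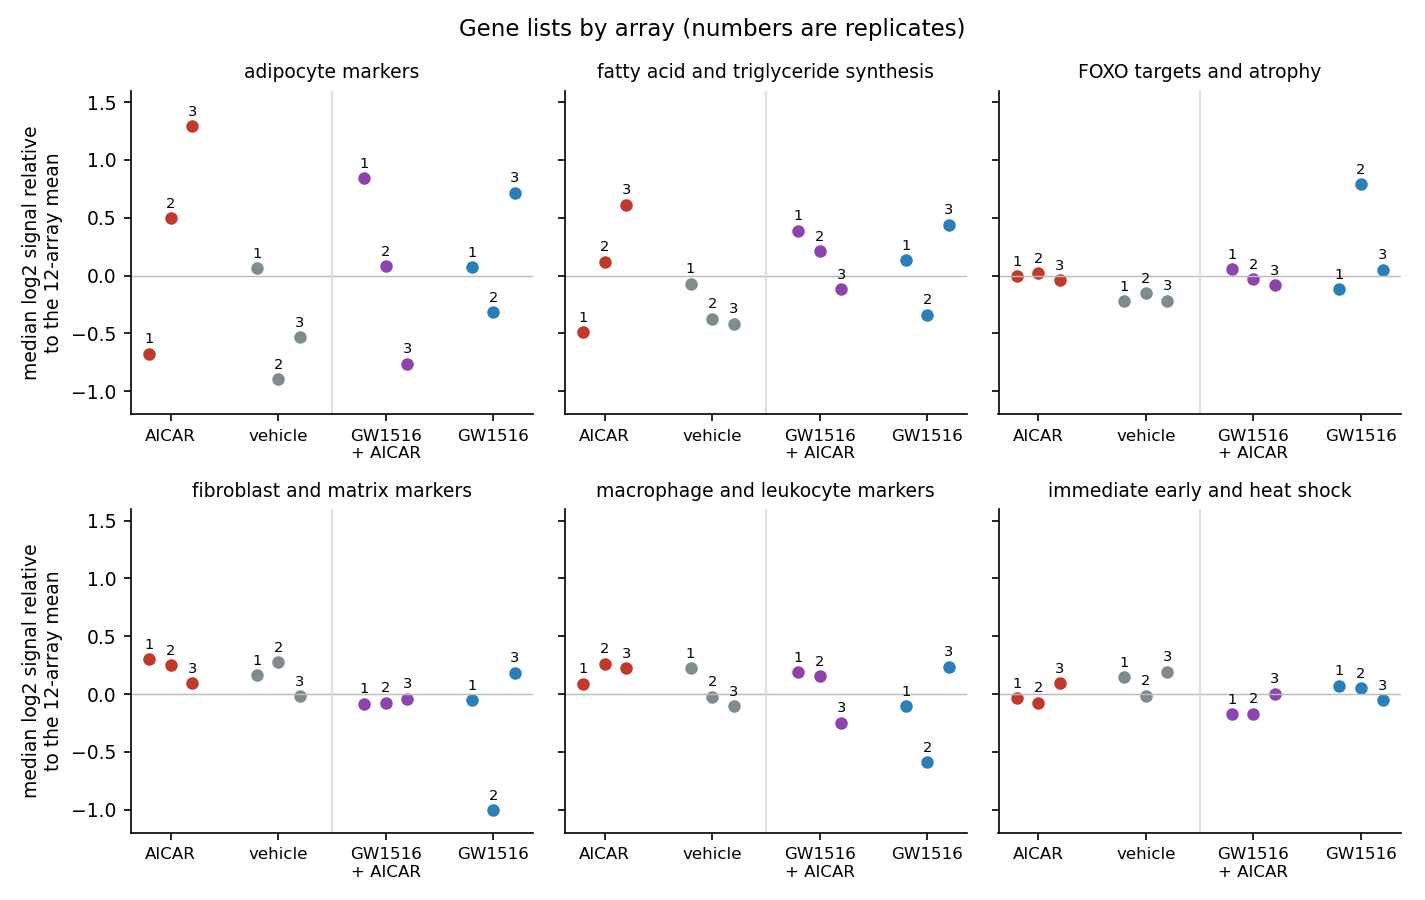
Median log2 signal of the members of 6 gene lists relative to each gene's mean over 12 arrays (y axis), for each array (points, numbered by replicate) of the AICAR, vehicle, GW1516 + AICAR and GW1516 groups. GW1516 replicate 2 stands apart in the FOXO and atrophy panel at 0.79 and in the fibroblast panel at -1.004, and adipocyte markers spread from -0.68 to 1.29 within the AICAR arrays.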

How the data were processed

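Per the submitters' processing notes, MAS5 (version not given in the sources used here) made the deposited intensity values, 1 per probe set of an Affymetrix mouse array on a linear scale. The authors' values have the same trimmed mean on every array, as checked. Of 45101 probe sets, 64 controls were left out, and 34945 carried 1 gene symbol in an array annotation dated 2016, 932 several and 9160 none here. Of the symbols, 34754 were matched to a RefSeq gene table by gene ID, which changed 0. A floor of 1 was applied (to 3531 of 540444 signals) before taking log2. The dimmest 40% of probe sets (mean under 28.2) were dropped, and each gene was read from its brightest probe set, giving 12771 genes.

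The model was limma 3.58.1 in R 4.3.3 with AICAR and GW1516 as additive factors and moderated variances that followed mean signal (degrees of freedom: 9 residual, 5.91 prior). Tests were two-sided, with Benjamini-Hochberg adjustment over all genes. The interaction and the contrasts within each background came from a fit with a mean per group. Leading genes were those called plus those of smallest p, up to 12 per direction. A fixed set of AMPK, PPAR, clock and atrophy genes and up to 4 members of smallest p in each of 24 lists were also named. The members, lists, named genes and tests were chosen with earlier results of these data known. The dose, time and pooling come from the labels, which give no scan date. Replicate numbers come from the titles and were checked as pairs. Alternatives covered normalization, filter, pseudocount, probe set, variance model, array weights and each array left out. The code was tested on simulated data. Precision is limited by the number of arrays. Plots used Python 3.11.15 and matplotlib 3.10.9.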

Additional observations from a re-analysis of the deposited data

Results flagged for a closer look

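Each gene's arrays with AICAR, and those without it, were checked after removing the GW1516 difference, 48 sets of 6 arrays for the 24 leading genes. Chance flags about 1 in 20 such sets, and 2 were found. GW1516 + AICAR replicate 1 had a Tubb4b signal of 2801, and its gap to the nearest array was 0.716 of the range of the 6. GW1516 + AICAR replicate 3 had a Serpinf2 signal of 84.0, where the other arrays with AICAR had 18.4 to 25.7, and its gap was 0.672 of the range. The threshold for 6 arrays is 0.625.

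In 5 genes, every array with AICAR lay on one side of the mean of the arrays without it in the vehicle background and every such array on the opposite side in the GW1516 background. Other named genes had average differences of opposite sign without this separation. The difference of GW1516 + AICAR minus GW1516 less that of AICAR minus vehicle was -0.316 for Ppargc1a, -0.557 for the phosphatidate phosphatase gene Lpin1, -0.273 for the acetyl-CoA carboxylase gene Acacb, -1.23 for Fbxo32 and -0.988 for Trim63 on the log2 scale. None passed in the interaction test across all genes (limma, smallest adjusted p = 0.703). Lpin1 had signals of 6013, 5886 and 5409 in the AICAR arrays, against 4195, 4498 and 4616 in the vehicle arrays, and 5787, 5802 and 6015 in the GW1516 + AICAR arrays, against 6155, 7551 and 6301 in the GW1516 arrays. For Fbxo32 and Trim63, GW1516 replicate 2 alone held signals of 11253 and 10734.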

How the results depend on the processing

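No called gene changed direction in 144 alternative fits, of which 86 kept the call and 58 lost it. Against 6 genes called, the count was 13 (7 higher, 6 lower) with 32 added to each signal, 15 with no filter, 12 with the lowest 60% left out, 11 with each gene's probe sets averaged, 29 with array weights, 27 at an adjusted p under 0.1, 1289 at an unadjusted p under 0.05 and, chosen after seeing the data, 26 with every probe set tested. By limma it was 0 with no variance trend (1265 at an unadjusted p under 0.05) and 0 with GW1516 left out of the model (1220). Quantile normalization gave 6, median centring 4 (2 higher, 2 lower), robust variances 8 and a mean per group 4. It was 1 for AICAR against vehicle and 0 for GW1516 + AICAR against GW1516. Leaving out 1 array gave 1 to 20 genes: 20 without GW1516 replicate 2, 3 without GW1516 replicate 1 or AICAR replicate 3, 2 without AICAR replicate 2 or GW1516 + AICAR replicate 2, and 1 without GW1516 + AICAR replicate 1 or vehicle replicate 1. The interaction count stayed at 0 in all 12. With the replicate number as a block the count was 4. Over 18 pairs with the same number, correlations of deviations were -0.11 to 0.07, and 2 of 12 arrays correlated best with their own number. These values gave no sign that the numbers pair the arrays, and do not exclude it.

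Among 121 other named genes, 17 of 2891 fits turned the sign. With probe sets averaged, Stk11 stood at 0.19, Mef2a at -0.056, Idh3b at -0.037, Mvk at 0.025, Atic at -0.015, Cox5b at -0.082, Uqcrb at -0.0069 and Ndufs8 at -0.011. With array weights Mlycd was 0.037 and Fbxo32 0.092. Leaving out 1 array gave -0.082 to 0.016 for Prkaa2, -0.12 to 0.084 for Mlycd and -0.45 to 0.19 for Fbxo32, each positive without GW1516 replicate 2. It gave -0.42 to 0.16 for Slc4a1, positive without GW1516 replicate 1 or GW1516 + AICAR replicate 1. It gave -0.019 to 0.33 for Angptl4 and -0.27 to 0.042 for Hba-a2, the sign turning without vehicle replicate 2. The causes were not tested.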

Other observations

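When each of 22714 probe sets was tested on its own, a setting chosen after seeing the data, 26 passed (8 higher, 18 lower), and 14 of these were not their gene's brightest. In several the brightest probe set of the same gene differed little, and which transcript forms each probe set reads was not determined. A probe set of Ryr1, the calcium release channel of muscle, differed by -0.34 ± 0.054 (limma, adjusted p = 0.0319) at a mean signal of 9073, where the brightest stood at 0.02. For Egln1, a prolyl hydroxylase of the oxygen response, the values were -0.58 ± 0.10 (limma, adjusted p = 0.0484) and -0.00077. For Pdpk1, a kinase upstream of AKT, they were -0.51 ± 0.090 (limma, adjusted p = 0.0476) and -0.12, and for Crtc3, a coactivator of CREB, -1.03 ± 0.16 (limma, adjusted p = 0.0319) and -0.40. St3gal3, a sialyltransferase gene, was higher in its dimmer probe set at 1.08 ± 0.15 (limma, adjusted p = 0.0187), with 0.17 in the brightest. These genes were named after their values were seen.

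Of 12 angiogenic and vasoactive factors, 10 were above 0 with a median of 0.07. At an unadjusted p under 0.05, 2 were higher (16.7%, against 5.59% of all genes in that direction). Epas1, the hypoxia-inducible factor of endothelium, stood at 0.18 ± 0.059, the vasodilator gene Adm at 0.54 ± 0.24 and Vegfa at 0.10 ± 0.087, and none passed. Of 15 cholesterol synthesis genes, 10 were above 0 with a median of 0.05, and Lss, the lanosterol synthase gene, stood at 0.48 ± 0.21.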
